A study of Homo sapiens with 6 samples.

Results

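The tripartite motif (TRIM) genes of MDA-MB-453 cells were compared between *DUSP6* siRNA and scrambled siRNA. MDA-MB-453 is an established HER2+ breast cancer cell line, and *DUSP6* encodes a phosphatase that switches off ERK. Members were all rows whose symbol was TRIM, a number and at most 1 further letter, which gave 61 of the 22807 genes in the table. Of these, 37 had a mean normalized value of at least 1 over the 6 libraries and were tested, and 24 were below that limit. Another 14 RefSeq symbols of the same form, such as *TRIM43*, *TRIM48* and *TRIM60*, had no row in the table and were not analysed here. The scrambled siRNA group (genotype label WT) and the *DUSP6* siRNA group (genotype label *DUSP6* KD) had 3 libraries each, and both were the same cell line after transient transfection. The study describes 3 different siRNAs per group, and the sources used here do not tie a given siRNA to a library.

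TRIM proteins are built from a RING finger, 1 or more B-boxes and a coiled coil, followed by a variable C-terminal part that usually chooses the target. The RING finger makes most of them ubiquitin ligases, enzymes that attach ubiquitin to other proteins. A subset is induced by interferon and restricts viruses or tunes the sensors that detect viral RNA, while others work in transcription, the cytoskeleton, the nervous system and muscle. The family was therefore divided into 10 members known as interferon-inducible (*TRIM5*, *TRIM14*, *TRIM21*, *TRIM22*, *TRIM25*, *TRIM26*, *TRIM34*, *TRIM38*, *TRIM56* and *TRIM69*) and the other 51.

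Interferon-inducible genes often carry an interferon-stimulated response element near their start, with a core of GAAA, 2 bases of any kind (NN) and GAAA again or, read on the opposite strand, TTTC, NN and TTTC. Both strands of the RefSeq promoter windows on GRCh38.p14, from 250 bases before to 50 bases after each start, were searched for these letters, and overlapping matches were counted. A window was present for 48 members. The core was found in 6 of 9 interferon-inducible members with a window and in 3 of 39 others (*TRIM2*, *TRIM16* and *TRIM44*), compared with 4.38% of the 27305 genes with a window. The 6 stretches are shown because they set these promoters beside the measured changes, in lower case, 5′ to 3′ on the strand of the gene, with the core letters in capitals.
TRIM21: ctgagcgGAAACTGAAAGTGAAAtagggag
TRIM69: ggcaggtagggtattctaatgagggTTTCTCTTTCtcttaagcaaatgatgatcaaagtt
TRIM5: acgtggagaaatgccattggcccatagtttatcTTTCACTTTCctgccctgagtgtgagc
TRIM26: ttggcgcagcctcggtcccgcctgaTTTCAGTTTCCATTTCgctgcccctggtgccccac
TRIM14: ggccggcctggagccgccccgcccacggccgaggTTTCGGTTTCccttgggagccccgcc
TRIM34: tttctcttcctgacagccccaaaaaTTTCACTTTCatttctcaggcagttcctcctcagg
The stretch of *TRIM21* lies at chr11:4393663-4393692 on the minus strand and holds 2 overlapping matches, 18 to 33 bases after the start. The stretches of *TRIM69* (chr15:44736441-44736500, plus strand) and *TRIM5* (chr11:5685075-5685134, minus strand) hold the core from base -62 and from base -27. *TRIM26* (chr6:30213566-30213625, minus strand) has 2 overlapping matches from base -194. *TRIM14* (chr9:98119223-98119282, minus strand) and *TRIM34* (chr11:5624886-5624945, plus strand) have 1 match each, from base -26 and base -90. The windows of *TRIM25*, *TRIM38* and *TRIM56* did not hold these letters. A match describes the letters only.

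The libraries held between 45546981 and 85729785 reads on genes. A normalized value is a read count scaled to the library's depth, and 1 read was worth 0.0121 to 0.0202. *DUSP6* was measured at 209, 110 and 114 in the scrambled siRNA libraries and at 39.4, 24.5 and 35.2 in the *DUSP6* siRNA libraries, a log2 fold change of -2.05 (limma, SE 0.25, adjusted p = 3.09e-04). All 7 markers listed for this line were present, at mean values of 268 to 1653 in the scrambled siRNA libraries, and their summed level was 4378 to 5108 after scrambled and 3185 to 3445 after *DUSP6* siRNA. *ESR1*, listed as lost in this line, was at 0.0281, whereas *PGR* was at 2.04. Of the 5 leukocyte markers 3 had a row, all below 1 in every library, with sums of 0.134 to 0.193 and 0.294 to 0.526. The summed level of the 3 fibroblast markers was 80.8 to 105 and 162 to 192, nearly all of it *COL1A1*, with *COL1A2* and *PDGFRB* below 1. Reads of the interferon genes *IFNB1* and *IFNL1* together numbered 2 to 20 per scrambled siRNA library and 768 to 1304 per *DUSP6* siRNA library. The part of these differences in the results below was not tested. In bulk RNA, fewer cells of a type and less RNA per cell cannot be told apart.

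Fold changes are given as log2 of value + 1, *DUSP6* siRNA against scrambled siRNA, and a gene was called at an adjusted p under 0.05 in limma fitted over all 12862 genes tested. Of the 37 tested members, 11 were called higher, 11 lower and 15 were not called. Over all genes tested, 19.7% were called higher and 24.7% lower. Against these shares, 29.7% of the tested members were called in each direction, so as many rose as fell. By list, the counts were uneven. Of the 7 interferon-inducible members tested, 5 were called higher, 1 lower and 1 was not called, with a median log2 fold change of 0.79 and a range of -0.93 to 2.05. Of the 30 other members tested, 6 were called higher, 10 lower and 14 were not called, with a median of -0.15 and a range of -1.01 to 0.60. The median over all genes tested was -0.01. *TRIM69*, called higher, and *TRIM46*, called lower, reached the limit of 1 only through the group where each was high. The limit itself thus favoured their place in these counts. The values of the 2 groups did not overlap, with the *DUSP6* siRNA libraries higher, for 6 interferon-inducible and 8 other members, against 26.7% of all genes tested. They did not overlap in the lower direction for 1 interferon-inducible and 13 other members, against 31.1% of all genes tested.

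**Figure D1:**
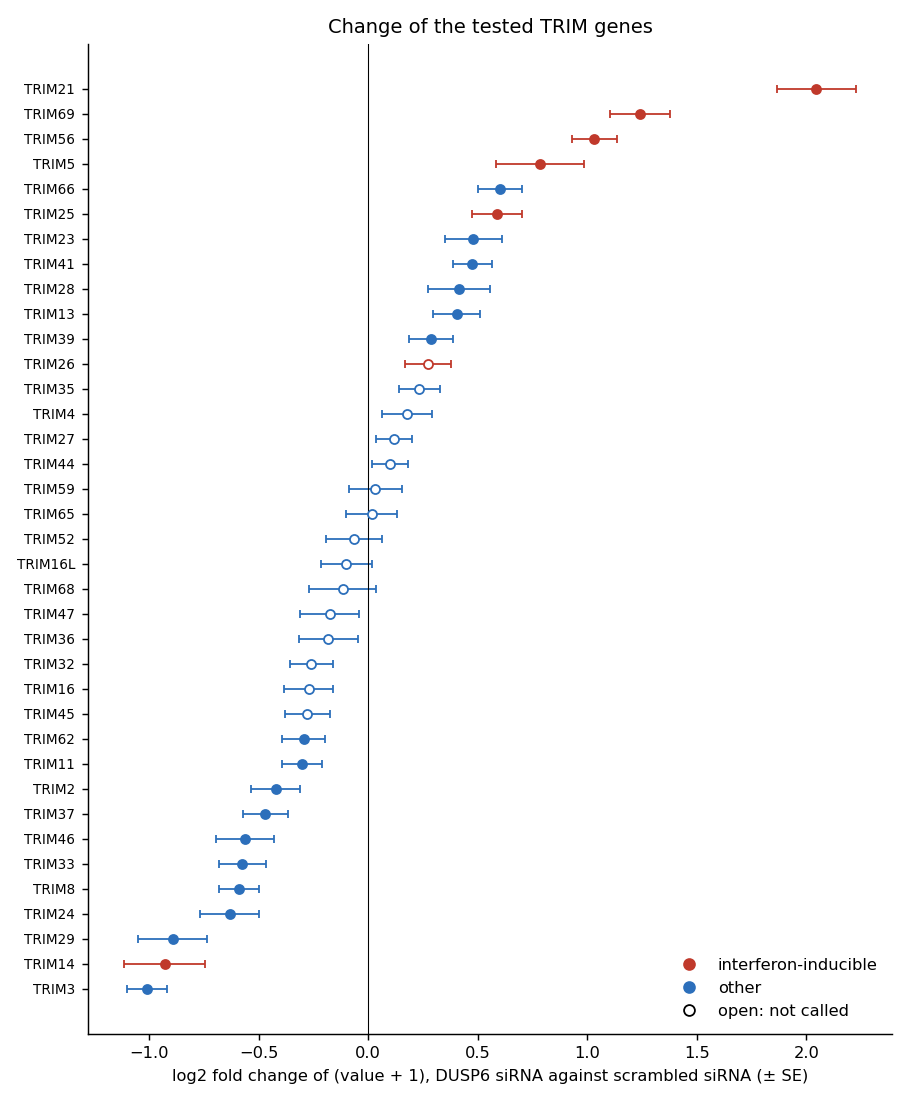
Log2 fold change of value + 1 (x axis, *DUSP6* siRNA against scrambled siRNA) of the 37 tested TRIM genes, in order, with the limma SE as bars. Red marks interferon-inducible members, blue the others, and open circles genes that were not called. Red points take the first 4 places, from 2.05 for *TRIM21* to 0.79 for *TRIM5*, and *TRIM14* at -0.93 stands with *TRIM3* and *TRIM29* at the other end.

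*TRIM21* had the largest log2 fold change of value + 1 among the 37 tested members. It encodes a cytosolic receptor for antibodies that marks antibody-coated viruses for degradation. *TRIM21* (Entrez 6737, chr11:4384897-4393702) was measured at 7.36, 8.70 and 6.27 in the scrambled siRNA libraries and at 38.3, 25.3 and 39.1 in the *DUSP6* siRNA libraries. Every *DUSP6* siRNA library was above every scrambled one. The mean rose from 7.44 ± 1.22 to 34.2 ± 7.71 (SD, n = 3 each), which is 4.60-fold, and the log2 fold change was 2.05 (limma, SE 0.18, adjusted p = 5.17e-05). Per kb of transcript its level went from 3.85 to 17.7, and its place by level among the 61 members from 26 to 9. This is the gene whose stretch above holds both overlapping matches behind the start.

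*TRIM69* encodes a microtubule-binding ligase that restricts some RNA viruses. It was low, with values of 0.997, 0.862 and 1.01 after scrambled siRNA and 4.13, 2.84 and 4.03 after *DUSP6* siRNA (Entrez 140691, chr15:44736528-44767827). The groups did not overlap, and the mean rose 3.83-fold from 0.957 ± 0.0825 to 3.66 ± 0.718. The scrambled siRNA mean was under the limit of 1, so *TRIM69* was tested only through its *DUSP6* siRNA libraries. At that scrambled level only a rise could have been tested. The log2 fold change was 1.24 (limma, SE 0.14, adjusted p = 1.73e-04). At this level the added 1 lowers the figure, and edgeR on the recovered reads gave 1.96.

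*TRIM56*, a ligase that acts against several RNA viruses and in cytosolic DNA sensing, was measured with values of 11.2, 10.8 and 11.8 in the scrambled siRNA libraries and 24.4, 22.2 and 25.9 in the *DUSP6* siRNA libraries (Entrez 81844, chr7:101085481-101097967). All *DUSP6* siRNA libraries were higher, with a mean of 24.2 ± 1.87 against 11.3 ± 0.489. The log2 fold change was 1.03 (limma, SE 0.10, adjusted p = 1.15e-04). Its promoter window held no core match.

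*TRIM5*, which binds the capsid of incoming retroviruses, was measured at 5.76, 5.21 and 3.71 against 10.5, 6.52 and 10.7 (Entrez 85363, chr11:5588635-5685074). The groups did not overlap, but replicate 2 of the *DUSP6* siRNA group was only just above replicate 1 of the scrambled group. The mean rose from 4.89 ± 1.06 to 9.24 ± 2.36, with a log2 fold change of 0.79 (limma, SE 0.20, adjusted p = 0.0119). An annotated read-through transcript shares 7.1% of its exon sequence, so a small part of its reads is uncertain in origin.

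*TRIM25*, the ligase that modifies the RNA sensor RIG-I, was already well expressed. It was at 70.0, 69.0 and 82.4 in the scrambled siRNA libraries and at 118, 97.5 and 119 in the *DUSP6* siRNA libraries (Entrez 7706, chr17:56887909-56914049). Again no *DUSP6* siRNA library was as low as a scrambled one. The mean rose 1.51-fold from 73.8 ± 7.43 to 111 ± 12.2, and the log2 fold change was 0.59 (limma, SE 0.11, adjusted p = 0.00317).

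*TRIM26*, a ligase linked to the turnover of the transcription factor IRF3, had values of 121, 127 and 103 against 148, 130 and 146 (Entrez 7726, chr6:30184455-30213406). The groups did not overlap, although replicate 2 of each came within a few units of the other. The log2 fold change of 0.28 was not called (limma, SE 0.11, adjusted p = 0.0595). edgeR on the recovered reads called it at an adjusted p of 0.0488, and without replicate 2 of the scrambled group limma called it at an adjusted p of 0.0363. Quantile normalization gave an adjusted p of 0.0127 in limma.

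*TRIM14* went the other way. It encodes a member without a RING finger that acts as an adaptor of antiviral signaling at mitochondria. Its values were 50.04, 42.8 and 54.0 in the scrambled siRNA libraries and 31.8, 18.4 and 27.1 in the *DUSP6* siRNA libraries (Entrez 9830, chr9:98035797-98119222). All *DUSP6* siRNA libraries were lower, and the mean fell from 48.9 ± 5.70 to 25.7 ± 6.80. The log2 fold change was -0.93 (limma, SE 0.18, adjusted p = 0.00367). Its exons share 7.7% of their length with the neighbouring gene *NANS*, so some of its reads may belong there. Its promoter stretch carries the core although its level was lower.

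**Figure D2:**
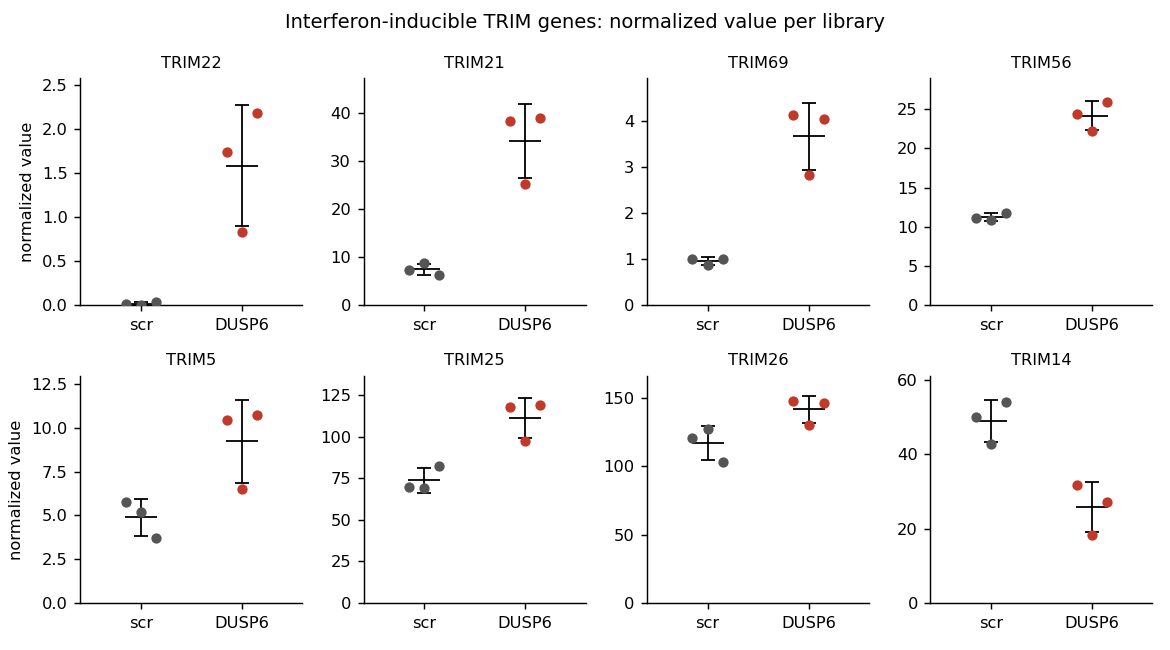
Normalized value (y axis, read counts scaled by library, linear from 0) of 8 interferon-inducible TRIM genes in each library, grey for scrambled siRNA (scr) and red for *DUSP6* siRNA, with bars for mean ± SD (n = 3) and replicates 1 to 3 from left to right. The red points lie above the grey ones for 7 genes and below them for *TRIM14*, and replicate 2 is the lowest red point in every panel.

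*TRIM22*, a nuclear factor that restrains transcription of HIV-1, was below the limit for the test because it was almost silent in 1 group. It had 1, 0 and 3 reads in the scrambled siRNA libraries and 86, 68 and 141 reads in the *DUSP6* siRNA libraries, which corresponds to values of 1.74, 0.832 and 2.18 in the latter. The groups were far apart. Relative to depth, the pooled reads were 76.2 times higher after *DUSP6* siRNA (295 against 4 reads, 95% exact interval 29.4 to 281, counting error only). An exact two-sided permutation test over the 6 libraries gave p = 0.1, the smallest that 3 against 3 libraries allow. When every gene with a read was fitted, limma gave a log2 fold change of 1.31 (SE 0.18, adjusted p = 0.00288), and 13.1% of all 22807 genes were called higher in that fit. Since *TRIM22* was detected almost only in the group where it was high, a call could only be in the higher direction.

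The 2 remaining interferon-inducible members were not detectable as different at this depth. *TRIM34*, a relative of *TRIM5* that also binds capsids, had 0, 0 and 1 reads against 4, 0 and 2. It shares 83.6% of its exon sequence with the annotated *TRIM6*-*TRIM34* read-through transcript, so that even these reads are uncertain. *TRIM38*, which limits inflammatory signaling, had 0, 1 and 1 reads against 0, 0 and 1. The cluster of *TRIM5*, *TRIM6*, *TRIM22* and *TRIM34* on chromosome 11 thus held 1 gene at a level that could be tested, 1 gene seen almost only after *DUSP6* siRNA and 2 genes at no more than 4 reads in any library.

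The *DUSP6* siRNA libraries were not alike in this group. All 7 tested interferon-inducible members were lowest in replicate 2, including *TRIM14*, which was called lower, and *TRIM26*, which was not called. Over all genes tested, 33.5% were lowest of the 3 in replicate 2. Relative to the scrambled mean, the 7 members had median log2 differences of 0.98 in replicate 1, 0.40 in replicate 2 and 1.01 in replicate 3 of the *DUSP6* siRNA group, and between -0.05 and 0.04 in the scrambled siRNA libraries. The smaller increase was clearest for *TRIM5*, whose difference was 0.37 in replicate 2 against 0.98 and 1.01 in replicates 1 and 3. For *TRIM14*, replicate 2 had the largest fall, of -1.36 against -0.60 and -0.83. The other members had medians of -0.12, -0.19 and -0.08 in the same libraries, again lowest in replicate 2. These are medians over 30 members that changed in both directions, so their narrower range does not describe the spread of single members. *DUSP6* itself was also lowest in replicate 2.

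**Figure D3:**
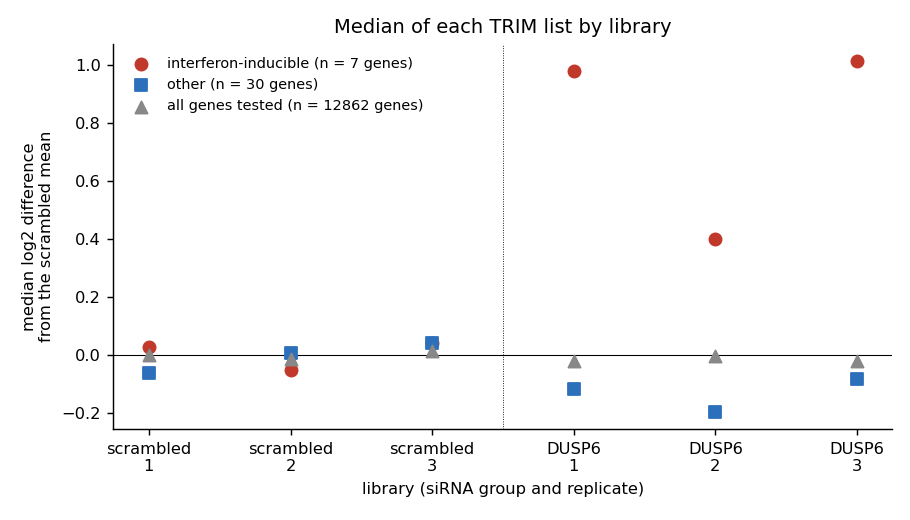
Median log2 difference from the mean of the scrambled siRNA libraries (y axis) in each of the 6 libraries (x axis), for the 7 interferon-inducible TRIM genes (circles), the 30 others (squares) and all 12862 genes tested (triangles). The circles stand at 0.98, 0.40 and 1.01 in the *DUSP6* siRNA libraries, while the squares stay between -0.19 and -0.08 there.

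Of the 30 tested members outside the interferon-inducible list, 16 had an absolute log2 fold change under 0.3, 1 was higher by at least 0.5 and 6 were lower by at least 0.5. The chromatin-binding members with a PHD finger and a bromodomain were called in both directions, 2 higher and 2 lower of 4. The shares of all genes tested were 19.7% called higher and 24.7% called lower. *TRIM66*, a testis-enriched corepressor with the largest positive log2 fold change of value + 1 among these 30, rose from 12.96, 11.6 and 11.7 to 19.6, 18.6 and 18.2. These groups were well apart, with a log2 fold change of 0.60 (Entrez 9866, chr11:8612040-8683231, limma, SE 0.10, adjusted p = 0.00163). *TRIM28*, the corepressor of KRAB zinc finger proteins that keeps endogenous retroviruses silent, was the highest member per kb of transcript in both groups, at 82.4 and 108. Its values were 247, 237 and 347 against 382, 364 and 349 (Entrez 10155, chr19:58544064-58550715). Scrambled siRNA replicate 3 nearly reached the *DUSP6* siRNA libraries, and the log2 fold change of 0.41 was close to the limit (limma, SE 0.14, adjusted p = 0.0397). The call was lost in limma when any library other than that one was left out, with adjusted p values of 0.0789 to 0.120, and with no filter on low values (adjusted p = 0.0848).

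Both lower genes of this class are transcriptional cofactors. *TRIM24*, a coregulator of nuclear receptors, was at 50.01, 51.0 and 36.3 in the scrambled siRNA libraries and at 29.0, 28.003 and 29.6 in the *DUSP6* siRNA libraries. The groups did not overlap, and the log2 fold change was -0.63 (Entrez 8805, chr7:138460259-138589996, limma, SE 0.13, adjusted p = 0.00516). *TRIM33*, which acts on SMAD4 in TGF-beta signaling, was at 112, 101 and 86.1 against 65.4, 65.0 and 68.5. It was lower in every *DUSP6* siRNA library, with a log2 fold change of -0.57 (Entrez 51592, chr1:114392790-114511203, limma, SE 0.11, adjusted p = 0.00275).

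All 3 tested members with NHL repeats, a C-terminal propeller that binds RNA or protein, were lower without overlap, and 2 of them were called. Among all genes tested, 31.1% were lower without overlap and 24.7% were called lower. *TRIM3*, a ligase best known from neurons, had the lowest log2 fold change of value + 1 among the tested members. Without the added 1, *TRIM46*, which lay near the limit for the test, fell further. *TRIM3* was measured at 118, 124 and 131 after scrambled siRNA and at 67.1, 58.7 and 58.8 after *DUSP6* siRNA (Entrez 10612, chr11:6448613-6474459). The groups stood far apart, the mean went from 125 ± 6.59 to 61.5 ± 4.81, and the log2 fold change was -1.01 (limma, SE 0.09, adjusted p = 7.08e-05). Per kb of transcript *TRIM3* was in place 2 of the family in the scrambled group and in place 7 in the *DUSP6* siRNA group. *TRIM2*, which targets neurofilament light chain, went from 20.5, 21.5 and 17.5 to 13.8, 14.6 and 15.1, a log2 fold change of -0.42 (Entrez 23321, chr4:153152163-153339317, limma, SE 0.11, adjusted p = 0.0140). More than 5% of its exon sequence also belongs to an annotated read-through transcript. *TRIM32*, a ligase mutated in a limb-girdle muscular dystrophy, had a log2 fold change of -0.26 and was not called (limma, SE 0.10, adjusted p = 0.0543). *TRIM71*, a stem cell member, had at most 3 reads in any library.

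The 6 members without a RING finger were again mixed, with *TRIM66* higher, *TRIM14* and *TRIM29* lower and *TRIM16*, *TRIM16L* and *TRIM44* not called. *TRIM29*, expressed in basal epithelium and linked to the DNA damage response, was at 25.1, 24.3 and 17.0 against 12.6, 10.1 and 11.3 (Entrez 23650, chr11:120111286-120138113). It was lower in all *DUSP6* siRNA libraries, with a mean of 22.1 ± 4.46 against 11.3 ± 1.22 and a log2 fold change of -0.89 (limma, SE 0.16, adjusted p = 0.00206). *TRIM16* and *TRIM16L* share sequence, with 28.9% and 39.4% of their 50-base stretches also present in the other, so that their reads could be divided between them. Their log2 fold changes of -0.27 and -0.10 did not pass the test. An annotated read-through transcript also shares 23.5% of the exon sequence of *TRIM16*.

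Members tied to microtubules through a COS box and a fibronectin type III domain had low levels, and 2 of 4 could be tested. *TRIM46*, which organizes microtubules at the start of the axon, was at 1.35, 1.82 and 1.23 against 0.768, 0.758 and 0.479, with no overlap. Its *DUSP6* siRNA mean of 0.668 was under the limit of 1, so it was tested only through its scrambled siRNA libraries. The log2 fold change was -0.56 (Entrez 80128, chr1:155173849-155184971, limma, SE 0.13, adjusted p = 0.00853), and -1.09 by edgeR on the recovered reads, where the 1 is not added. *TRIM36* had a log2 fold change of -0.18 and was not called. None of the 3 muscle RING finger members (*TRIM54*, *TRIM55* and *TRIM63*) reached the limit for the test.

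The next members were alone in their structural class or were placed in none. *TRIM8*, which takes part in signaling from TNF and interleukin receptors and is placed among interferon-responsive genes in the wider list, was at 69.7, 66.2 and 61.5 against 45.4, 41.5 and 43.2. It was lower in every *DUSP6* siRNA library, with a log2 fold change of -0.59 (Entrez 81603, chr10:102644479-102658319, limma, SE 0.09, adjusted p = 0.00106). *TRIM37*, the MATH domain member that acts on peroxisomes and centrosomes, fell from 68.9, 64.4 and 55.8 to 42.6, 45.8 and 47.0. Its log2 fold change was -0.47 (Entrez 4591, chr17:58967201-59106880, limma, SE 0.10, adjusted p = 0.00619), and 5.2% of its exon sequence overlaps *PPM1E*. *TRIM23*, the only member with an ARF GTPase domain, rose from 17.6, 18.3 and 20.2 to 23.3, 31.6 and 24.9, a log2 fold change of 0.48 (Entrez 373, chr5:65589690-65624333, limma, SE 0.13, adjusted p = 0.0156). Replicate 2 of the *DUSP6* siRNA group was its highest library, and without it *TRIM23* was not called (limma, adjusted p = 0.0609).

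The remaining members called higher were *TRIM41*, *TRIM13* and *TRIM39*. *TRIM41* was at 45.3, 42.6 and 42.7 against 57.9, 65.1 and 59.7, clearly apart, with a log2 fold change of 0.47 (Entrez 90933, chr5:181223281-181235808, limma, SE 0.09, adjusted p = 0.00286). *TRIM13*, a ligase anchored in the endoplasmic reticulum, was at 12.4, 13.7 and 14.4 against 16.8, 19.3 and 18.5. Its log2 fold change was 0.40 (Entrez 10206, chr13:49997042-50018467, limma, SE 0.11, adjusted p = 0.0146). It overlaps *KCNRG* in 13.4% of its exon sequence, and without *DUSP6* siRNA replicate 2 or 3 the adjusted p was 0.0646 or 0.0689. *TRIM39*, a ligase of the cell cycle and apoptosis, was at 15.2, 14.8 and 14.9 against 17.1, 19.0 and 19.4, with a log2 fold change of 0.29 (Entrez 56658, chr6:30326469-30343729, limma, SE 0.10, adjusted p = 0.0432). This call did not hold under 8 of 14 alternative settings, with adjusted p values of up to 0.181, and 29.5% of the exon sequence belongs also to a read-through transcript with *RPP21*. *TRIM11* and *TRIM62* completed the members called lower, with log2 fold changes of -0.30 and -0.29. *TRIM62*, a regulator of epithelial polarity, was not called under 6 of the alternatives, and *TRIM11* under 3.

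**Figure D4:**
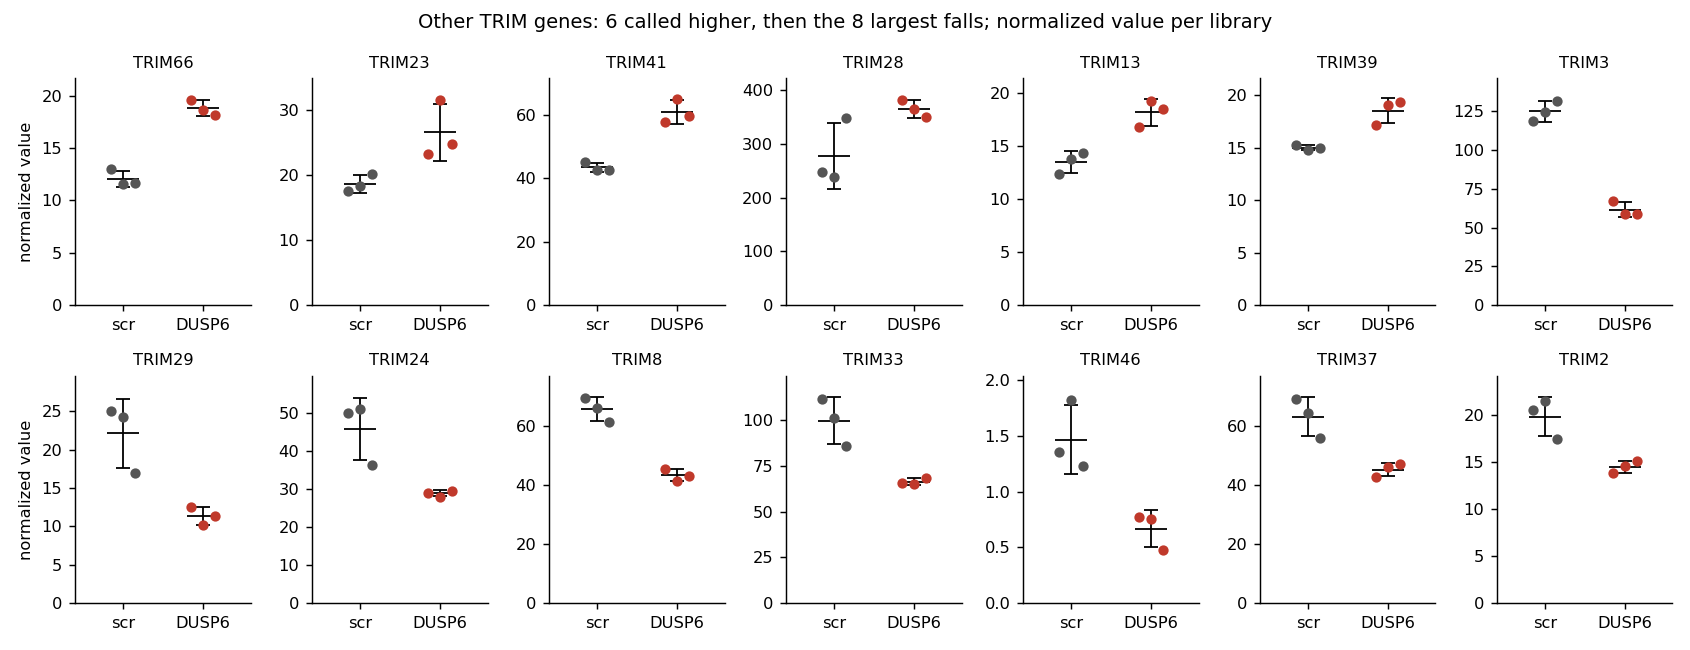
Normalized value (y axis, read counts scaled by library, linear from 0) of the 6 other TRIM genes called higher and the 8 with the largest falls among those called lower, in each library, with bars for mean ± SD (n = 3). In each of the 14 panels the red *DUSP6* siRNA points do not overlap the grey scrambled siRNA (scr) points, with the smallest gap, relative to its level, for *TRIM28*.

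The 14 other members tested but not called covered -0.28 to 0.23 on the log2 scale. *TRIM35*, *TRIM27*, *TRIM32*, *TRIM16* and *TRIM45* had groups that did not overlap, while the rest overlapped. *TRIM59*, *TRIM65* and *TRIM52* had log2 fold changes of 0.03, 0.02 and -0.07. *TRIM65*, which modifies the RNA sensor MDA5, was thus measured at 17.2 ± 2.31 against 17.4 ± 0.628. *TRIM44*, a RING-less member with a core match in its promoter window, had a log2 fold change of 0.10 and high values of 172 to 197. Exon overlap with a neighbour or read-through transcript exceeded 5% in 9 of the tested members, among them *TRIM59* (19.9%, with *SMC4*) and *TRIM52* (27.6%).

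Per kb of transcript, the order of levels in the scrambled group was led by *TRIM28*, *TRIM3*, *TRIM16*, *TRIM26* and *TRIM16L*. These were at 82.4, 43.9, 35.0, 33.2 and 29.6 per kb. In the *DUSP6* siRNA group *TRIM28* was followed by *TRIM26*, at 40.2 per kb. *TRIM16* and *TRIM26* lay closer to each other than their spread between libraries, with SDs of 11.4 and 12.6 on mean values of 118 and 117 before division by length. The tested interferon-inducible members ranged in level from *TRIM26* at 33.2 per kb to *TRIM69* at 0.552 per kb. The 3 lowest of these, *TRIM69*, *TRIM56* and *TRIM5*, had log2 fold changes of 1.24, 1.03 and 0.79.

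**Figure D5:**
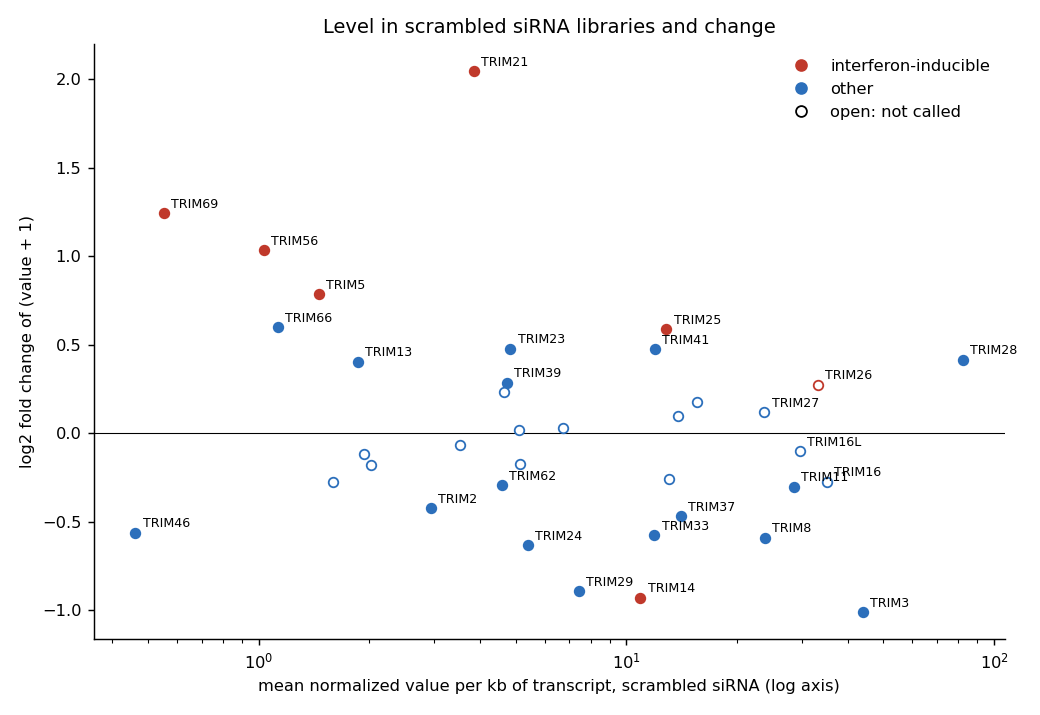
Mean normalized value per kb of transcript in the scrambled siRNA libraries (x axis, log scale) against the log2 fold change of value + 1 (y axis) for the 37 tested TRIM genes. Red marks interferon-inducible members, blue the others, and open circles genes that were not called. The highest gene, *TRIM28* at 82.4 per kb, has a log2 fold change of 0.41, and *TRIM21* at 3.85 per kb has 2.05.

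By position, 3 of the 8 members near the HLA genes on chromosome 6 could be tested. *TRIM26*, *TRIM27* and *TRIM39* were higher without overlap in that region, and 1 of them, *TRIM39*, was called. On chromosome 1, 4 of 5 tested members were called lower and 0 higher. On chromosome 11, 3 of 7 were called higher and 2 lower. On chromosome 17, 4 of 6 were not called. For comparison, 19.7% of all genes tested were called higher, 24.7% were called lower, and 26.7% were higher without overlap. These counts by position are small and were not tested.

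Of the 24 members below the limit, 11 had a mean value of at least 0.1 and 10 had no more than 3 reads in any library. After *TRIM22* the highest were *TRIM7*, *TRIM17*, *TRIM73* and *TRIM74*, at mean values of 0.693, 0.540, 0.528 and 0.362. *TRIM7*, a ligase that binds glycogenin and viral proteins, had 40, 15 and 49 reads against 43, 83 and 52, which did not overlap once scaled. With no filter its log2 fold change was 0.35 (limma, SE 0.09, adjusted p = 0.0328), which makes it the second member added to the higher side by that fit. *TRIM74* shares 91.7% of its 50-base stretches with *TRIM73*, and *TRIM73* shares 23.9% of its own with *TRIM74*, so the reads of *TRIM74* in particular are uncertain in origin. *TRIM31*, an interferon-responsive gene in the wider list, had 8 to 33 reads per library, and the groups overlapped.

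Partners and substrates of TRIM proteins in RNA sensing and interferon signaling were called higher more often than lower. Of 20 genes on that list with a row (*RNF135* among them), 19 were tested, 12 were called higher, 4 lower and 3 were not called, with a median log2 fold change of 0.59. Over all genes tested, 19.7% were called higher and 24.7% lower, with a median of -0.01. *STING1*, which encodes an adaptor of DNA sensing, was the partner below the limit for the test, at a mean value of 0.974 after scrambled and 0.217 after *DUSP6* siRNA. The *TRIM25* partners *DDX58* (RIG-I) and *ZC3HAV1*, an antiviral RNA-binding protein, had log2 fold changes of 4.35 and 0.94. *IFIH1*, which encodes MDA5, was at 3.41, and the ubiquitin-like *ISG15* and its conjugating enzyme *UBE2L6* were at 4.70 and 3.66. The transcription factor genes *STAT2* and *IRF9* were at 1.51 and 3.70. The kinase *IKBKE* (-1.65), the adaptor *TAB2* (-1.35), the DNA sensor *CGAS* (-0.39) and the mitochondrial adaptor *MAVS* (-0.24) were called lower. The largest log2 fold change of a tested TRIM member, 2.05 for *TRIM21*, was smaller than those of 6 partners.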

How the data were processed

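RNA of 6 MDA-MB-453 libraries was prepared with a stranded Illumina mRNA kit and sequenced on a NovaSeq instrument. Per the study's methods, the authors mapped reads to hg38 using Rsubread, counted them on RefSeq gene models and deposited 1 normalized signal value per gene and library. bcl2fastq and edgeR are named in the submitters' processing notes. The values were whole multiples of 1 step per library (100% within 1e-6), and the recovered reads with edgeR's TMM factors gave the same steps. Whether counting used strand is not given in the sources used here.

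Values were taken as log2(value + 1), and the 12862 genes whose mean value reached 1 were fitted with limma 3.58.1 in R 4.3.3 (lmFit, eBayes with a trend, Benjamini-Hochberg, two-sided). An adjusted p under 0.05 was reached by 2540 higher and 3179 lower genes. On the recovered reads, the quasi-likelihood test of edgeR 4.0.16 called 5740 of them, 2771 higher and 2969 lower. Both were tried on simulated data in which few genes changed, all of them strongly. That run does not test the smaller changes reported here. Alternatives were no filter, a limit of 10 on the mean value, a pseudocount of 0.1, median-of-ratios and quantile scaling, eBayes without a trend, a replicate block, leaving out each library, edgeR and a wider interferon-inducible list. Per-kb levels used the canonical transcript length in GENCODE 44, which also gave the exon overlaps and the 50-base stretches shared between transcripts. Gene positions and promoter windows came from RefSeq on GRCh38.p14. The planned comparison of protein sequences was not made, and 1 gene of the planned partner list is not reported here.

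Named with the value in each library were the tested interferon-inducible members and, of the others, up to 8 called in each direction with the largest change. The members and lists were chosen with earlier results of these data known. Medians over a list are descriptions without a test. The labels do not say whether libraries came from separate cultures, so the p-values measure the spread between these libraries, which may be technical.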

Additional observations from a re-analysis of the deposited data

How the results depend on the processing

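Of the 37 tested members, 25 kept their call under each of 14 settings that tested them, 12 changed it under at least 1, and 0 called members changed sign. *TRIM26*, *TRIM32*, *TRIM35*, *TRIM44* and *TRIM45* gained a call somewhere, and *TRIM2*, *TRIM11*, *TRIM13*, *TRIM23*, *TRIM28*, *TRIM39* and *TRIM62* lost one. With a mean value of at least 10, 3 interferon-inducible members were called higher, since *TRIM5* and *TRIM69* then fall below the limit. With the wider interferon-inducible list (*TRIM6*, *TRIM8*, *TRIM31* and *TRIM35* added) 2 were called lower, the second being *TRIM8*. With no filter the median of the other members was -0.013, as untested low members enter. Leaving out 1 library at a time gave 7 to 12 members called higher and 9 to 12 lower, the 7 without *DUSP6* siRNA replicate 2. Among the interferon-inducible members 5 to 6 were called higher and 1 lower, with a median of 0.67 to 0.99. Among the others 2 to 7 were called higher (2 without *DUSP6* siRNA replicate 2 and 3 without replicate 3) and 8 to 11 lower, with a median of -0.19 to -0.10. The *DUSP6* log2 fold change was -2.22 to -1.76. The median of all genes stayed between -0.05 and 0.02 under every setting.

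Same-numbered libraries of the 2 groups showed no shared deviation, with correlations of deviations over the genes tested of 0.005, 0.087 and -0.076. Low correlations cannot decide whether libraries with the same number were handled together, which the labels do not state. With the replicate number as a block, 10 members were called higher and 10 lower. The interferon-inducible members stayed at 5 higher and 1 lower, and *TRIM39* and *TRIM62* were not called.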

Other observations

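Genes listed as members or relatives of the TRIM family under other names were examined as well. Of 7 such genes 6 had a row and 3 were tested. *PML* (TRIM19), which builds nuclear bodies and is itself interferon-inducible, was at 5.28, 5.15 and 4.93 in the scrambled siRNA libraries and at 14.3, 10.6 and 11.9 in the *DUSP6* siRNA libraries. The groups did not overlap, and the log2 fold change was 1.11 (limma, SE 0.13, adjusted p = 2.06e-04). *RNF135* (Riplet), a ligase that modifies RIG-I, went from a mean of 20.8 ± 1.68 to 32.9 ± 1.34, a log2 fold change of 0.64 (limma, SE 0.10, adjusted p = 0.00113). *MID2* (TRIM1), a microtubule-binding member, was lower, at 35.1 against 24.7, which is -0.49 on the log2 scale (limma, SE 0.10, adjusted p = 0.00430). *MID1*, *MEFV* and *TRIML2* were below the limit for the test. None of these genes was part of the counts of TRIM members above.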
